A study of Glycine max with 21 samples.

Results

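Roots of soybean (Glycine max cv. Williams 82) seedlings held in 100 mM NaCl for 12 hr were compared with roots held in the same solution for 6 hr, to follow which salt-changed genes went on changing, levelled off or returned towards the control level between the 2 harvests. The comparison rests on 6 of the 21 RNA-Seq libraries of the study, 3 biological replicates per time, taken by their labels as salt 6 hr and salt 12 hr. All plants were Williams 82 seedlings at the V1 stage, grown on moist germination paper in a growth chamber, with no transgene or mutation named. Salt stress was given by moving seedlings into the NaCl solution, the control was root tissue harvested at 0 hr before any stress, and the dehydration groups were plants left in air without water for 6 hr or 12 hr, each group with 3 libraries. No unstressed roots were taken at 6 or 12 hr, so the hour of the day and the age of the seedling cannot be told apart from the duration of salt, and only the dehydration roots give another view of the same hours. Root tissue was harvested whole, so fewer cells of a type and less RNA per cell cannot be told apart either.

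Salt reaches a root first as an osmotic shock and later as an ionic load, and the root answers through transcription factors that are switched on in waves. WRKY, NAC and AP2-EREBP (ethylene-responsive) proteins are known for roles in stress signalling, and ZIM-domain proteins act as repressors in jasmonate signalling. HD-Zip proteins, which join a homeodomain to a leucine zipper, fall into 4 subfamilies in plants. In Arabidopsis, members of HD-Zip I act in water-deficit responses, HD-Zip II in shade and auxin responses, HD-Zip III in meristem and vascular patterning, and HD-Zip IV in the epidermis.

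The 6 libraries differed in depth and in the size of their salt response. The reads counted on gene models summed to 5259475, 4202958 and 13759153 for replicates 1 to 3 at 6 hr and to 4895358, 10442485 and 8876438 at 12 hr. Replicate 3 of 6 hr stood apart. In the paper's read summary it had the lowest share of uniquely mapped reads of all 21 libraries. Its rank correlation with the other libraries of 6 hr was 0.886 and 0.924, against 0.938 to 0.959 among the libraries of 12 hr, and the genes raised by salt had a median log2 change over the control of 1.24 in it, against 2.2 and 2.07 in replicates 1 and 2 of 6 hr and 1.78 to 2.28 at 12 hr. All 3 libraries of 6 hr were sequenced in lane 2, whereas replicates 1, 2 and 3 of 12 hr were in lanes 2, 3 and 4. Levels below are given as CPM, counts scaled to library totals corrected by TMM factors, and differences as log2 of 12 hr over 6 hr with their standard error (SE), from edgeR's quasi-likelihood test fitted over all 21 libraries. A gene was called when its p, adjusted by the Benjamini-Hochberg method over the 36691 genes tested, was under 0.05 and its change at least 2-fold.

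Few single genes were called between 6 and 12 hr of salt, which does not show that few differed. Of the 36691 tested genes, 53 were called (0.144%), 16 higher at 12 hr (0.0436%) and 37 lower (0.101%), and an unadjusted p under 0.05 was reached by 4996 genes (13.6%), 2214 higher (6.03%) and 2782 lower (7.58%). The 3 libraries of 12 hr did not overlap the 3 of 6 hr for any of the 53, a pattern that 17.7% of all tested genes had. Most of the falls began from a level near the control: for 31 of the 37 genes that fell, the estimated level at 6 hr was within 2-fold of the control. The share of all tested genes within 2-fold was not counted, so whether this sets the falling genes apart is not known. Of all tested genes, 9.66% were called against the control at 6 hr, which is a different measure.

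The count of called genes depended on the fit, whereas the direction of the 53 did not. Since the libraries of 6 and 12 hr did not overlap for any of the 53, their kept direction is no further support. With the replicate number as a block, 19 genes were called (7 higher, 12 lower), all among the 53, and with lane as a term 7 were called, 5 of them among the 53. Only 2 were called with just the 6 compared libraries in the fit, and DESeq2's Wald test called 423, including 50 of the 53. Without replicate 3 of 6 hr 21 genes were called, without replicates 1, 2 and 3 of 12 hr in turn 11, 18 and 7, and in each of these fits all 53 kept their sign. Called in each of the 6 fits that left out 1 salt library were 5 genes: Glyma11g21580, Glyma04g26800, Glyma13g26930 and Glyma16g01980, which fell, and Glyma11g35270, which rose.

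Salt-changed genes were taken as those called in the mean of 6 and 12 hr against the control, a contrast that does not favour either time. There were 4702 of them (12.8% of tested genes), 2789 raised (7.6%) and 1913 lowered (5.21%). Between 6 and 12 hr, 18 of the 4702 went on in the direction of their salt change (5 raised, 13 lowered), 3 returned (2 raised, 1 lowered) and 4681 were not called. Went on means here a call between the times in the direction of the mean salt change. It does not require a change by 6 hr, and 12 of the 18 had no call against the control at 6 hr. The share called, 0.447%, stood beside 0.144% of all tested genes. The median log2 change of the raised genes over the control was 2.12 at 6 hr and 2.23 at 12 hr, with a median difference of 0.0415, and that of the lowered genes was −1.37 and −1.57, with a median difference of −0.202, against −0.0131 over all tested genes.

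**Figure D1:**
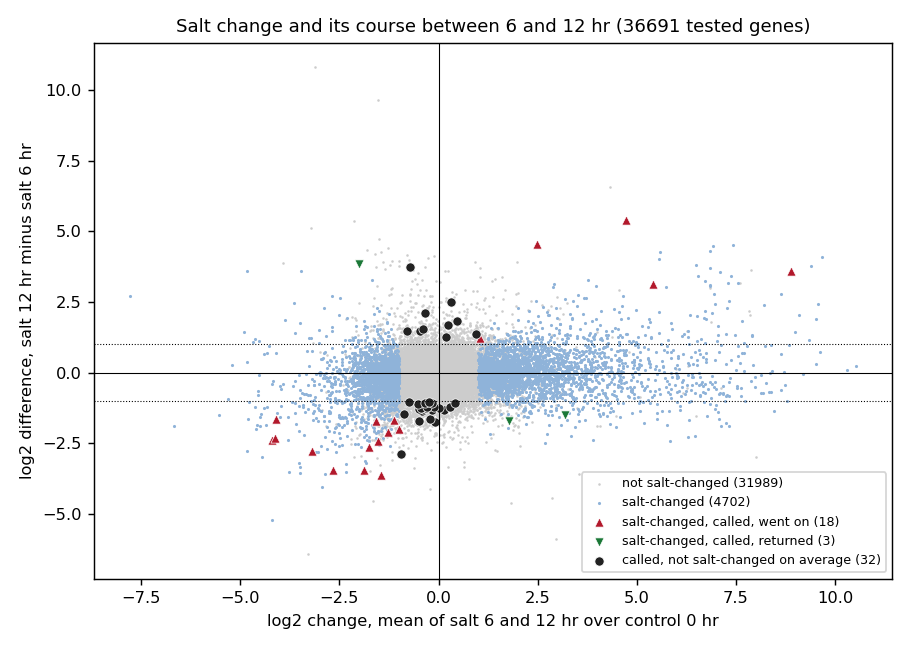
Each point is a tested gene, placed by its log2 change in the mean of salt 6 and 12 hr over the control at 0 hr (x) and its log2 difference between salt 12 and 6 hr (y), with dotted lines at 2-fold. The 18 called genes that went on lie in the upper right and lower left, the 3 that returned in the other corners, and most of the 4702 salt-changed genes between the dotted lines.

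A gene that was not called cannot be taken as level. For 826 of the 4681 salt-changed genes without a call (17.6%), the 95% interval of the log2 difference lay within −1 to 1, so that a further 2-fold change in either direction lay outside it. Over all tested genes the intervals of 47.6% lay within these bounds. Among raised genes without a call, 241 had an estimate more than 2-fold further from the control at 12 hr and 145 more than 2-fold nearer to it, and among lowered genes the numbers were 263 and 75. At an unadjusted p under 0.05, 192 raised genes were further and 85 nearer, and 248 lowered genes were further and 64 nearer.

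The number of fates moved with the choice of salt-changed genes and with single libraries. Genes chosen by their call at 6 hr alone (3543, 9.66%) gave 6 that went on and 8 that returned, and genes chosen at 12 hr alone (4535, 12.4%) gave 32 and 1, since each choice favours 1 outcome. The replicate block left 8 that went on and 1 that returned. Without replicate 3 of 6 hr, 9 genes went on, and without replicates 1, 2 and 3 of 12 hr in turn, 6, 11 and 6 went on and 1, 0 and 0 returned. The number that returned was 1 without replicate 2 of the control and 1 without replicate 3 of the control.

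In all, 2467 genes were called against the control at both times, each in the same direction at both, 1076 at 6 hr alone and 2068 at 12 hr alone. A call at 1 time alone is no test of a change between the times: of the 1076 genes called only at 6 hr, 7 were called between 6 and 12 hr, and of the 2068 called only at 12 hr, 26 were. Of the 18 genes that went on, 6 were already called at 6 hr (2 raised, 4 lowered) and the other 12 were called at 12 hr without a call at 6 hr (3 raised, 9 lowered).

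Of the 53 called genes, 9 carried a transcription factor class. The classes come from lists that the study drew up from genes it found differentially expressed on these same libraries, so the classes are not independent evidence of a direction, and the other 44 called genes may hold factors without a class. Of the 1054 genes with such a class, 978 were tested. Of these, 342 were raised and 171 lowered by salt on average, 9 were called between 6 and 12 hr (8 lower, 1 higher), and 148 (15.1%) had an unadjusted p under 0.05, beside 13.6% of all tested genes. Their median log2 difference was −0.178, beside −0.0131 over all.

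The MYB/HD-like class, which takes in MYB-type DNA-binding proteins with roles from cell identity to daily rhythms, held 5 of the 8 classed genes that fell. It also held 130 of the 978 tested genes with a class. Of these 130, 5 were called lower and 0 higher, where 0.101% and 0.0436% of all tested genes were. The 0 therefore says nothing particular about the class. An unadjusted p under 0.05 was reached by 27 (20.8%, beside 13.6% of all tested genes). Of the 27, 21 were lower and 6 higher, where 7.58% and 6.03% of all tested genes were. Without any 1 salt library the lower count was 17 to 24.

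Glyma16g01980 (MYB/HD-like) was high in the control roots at 1320, 857 and 869 CPM. It stood at 99.8, 121 and 155 CPM in the 3 libraries of 6 hr and at 24.3, 22.8 and 24.8 CPM at 12 hr. Every library of 12 hr was below every library of 6 hr, which were in turn all below the control. The log2 difference was −2.39 (SE 0.22, adjusted p = 4.92e-05, edgeR), a 5.23-fold lower level, after a log2 change of −3.01 from the control to 6 hr.

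Glyma07g05410 and Glyma19g45030, of the same class, followed the same steps down. Glyma07g05410 was at 22, 31.4 and 36.9 CPM at 6 hr and at 8.88, 7.7 and 12.3 CPM at 12 hr, from 448, 193 and 242 CPM in the control, and its log2 difference was −1.65 (SE 0.322, adjusted p = 0.0445, edgeR). Glyma19g45030 was at 11.1, 20.7 and 20.8 CPM at 6 hr and at 4.98, 2.99 and 2.86 CPM at 12 hr, from 190, 122 and 104 CPM in the control, with a log2 difference of −2.33 (SE 0.421, adjusted p = 0.0361, edgeR). In both genes the control, 6 hr and 12 hr libraries formed 3 ranges without overlap. With the replicate block the adjusted p became 0.0977 and 0.0813. Over the 6 fits without 1 salt library it ranged from 0.0494 to 0.158 for Glyma07g05410 and from 0.0303 to 0.172 for Glyma19g45030, and both were called only without replicate 1 of 6 hr.

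The other 2 MYB/HD-like genes fell below a control level that they had still held at 6 hr. Glyma20g11040 was at 2.67, 3.99 and 2.65 CPM at 6 hr and 0.433, 0.321 and 0.476 CPM at 12 hr, beside 0.962, 2.05 and 3.47 CPM in the control, a log2 difference of −2.87 (SE 0.493, adjusted p = 0.0284, edgeR). Glyma18g03430 was at 11.1, 5.99 and 10.8 CPM at 6 hr and 2.38, 2.78 and 3.33 CPM at 12 hr, beside 4.4, 8.77 and 8.5 CPM in the control, a log2 difference of −1.71 (SE 0.306, adjusted p = 0.0335, edgeR). For both genes the 6 hr libraries overlapped the control and the 12 hr libraries lay below both groups. With the replicate block the adjusted p was 0.077 for Glyma18g03430. Among the fits without 1 salt library each was called in 1, Glyma20g11040 without replicate 1 of 6 hr and Glyma18g03430 without replicate 2 of 6 hr, and the adjusted p ranged up to 0.121 and 0.118.

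The remaining classed genes came from 3 other classes. Glyma11g36980, an SBP gene (squamosa promoter-binding proteins, known for timing shoot development), was at 16.2, 12.5 and 10.3 CPM at 6 hr, beside 15.3, 14.8 and 17.9 CPM in the control, and at 1.73, 2.99 and 2.26 CPM at 12 hr. The 12 hr libraries lay far below both other groups, and the log2 difference was −2.43 (SE 0.347, adjusted p = 0.00814, edgeR), a 5.58-fold fall. The adjusted p was between 0.0146 and 0.0654 over the fits without 1 salt library, and the call was lost without replicate 1 and without replicate 3 of 12 hr.

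The CO-like class (zinc finger proteins related to CONSTANS, the photoperiodic flowering regulator of Arabidopsis) moved in both directions. Glyma14g36930 was at 14, 8.73 and 17.1 CPM at 6 hr, below the 35.7, 28.8 and 26.5 CPM of the control, and at 38.6, 32.6 and 47.9 CPM at 12 hr. It was the only called gene with a class that rose, by 1.55 (SE 0.257, adjusted p = 0.0219, edgeR) on the log2 scale, and its 12 hr libraries overlapped the control. Glyma12g11230 was at 5.75, 9.48 and 7.31 CPM at 6 hr and 2.6, 1.82 and 2.5 CPM at 12 hr, beside 16.1, 12.3 and 8.84 CPM in the control, a log2 difference of −1.71 (SE 0.324, adjusted p = 0.0404, edgeR). With the replicate block the adjusted p of Glyma12g11230 was 0.0813, and it was called only without replicate 1 of 6 hr, with values from 0.0496 to 0.151 over the fits without 1 salt library. Glyma14g36930 lost its call without replicate 1 and without replicate 3 of 12 hr, where the adjusted p rose to at most 0.111. Of the 34 tested CO-like genes 4 were higher and 3 lower at an unadjusted p under 0.05 (20.6% in all, beside 13.6% of all tested genes). The lower count was 7 without replicate 1 of 6 hr and 5 without replicate 2 of 12 hr.

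**Figure D2:**
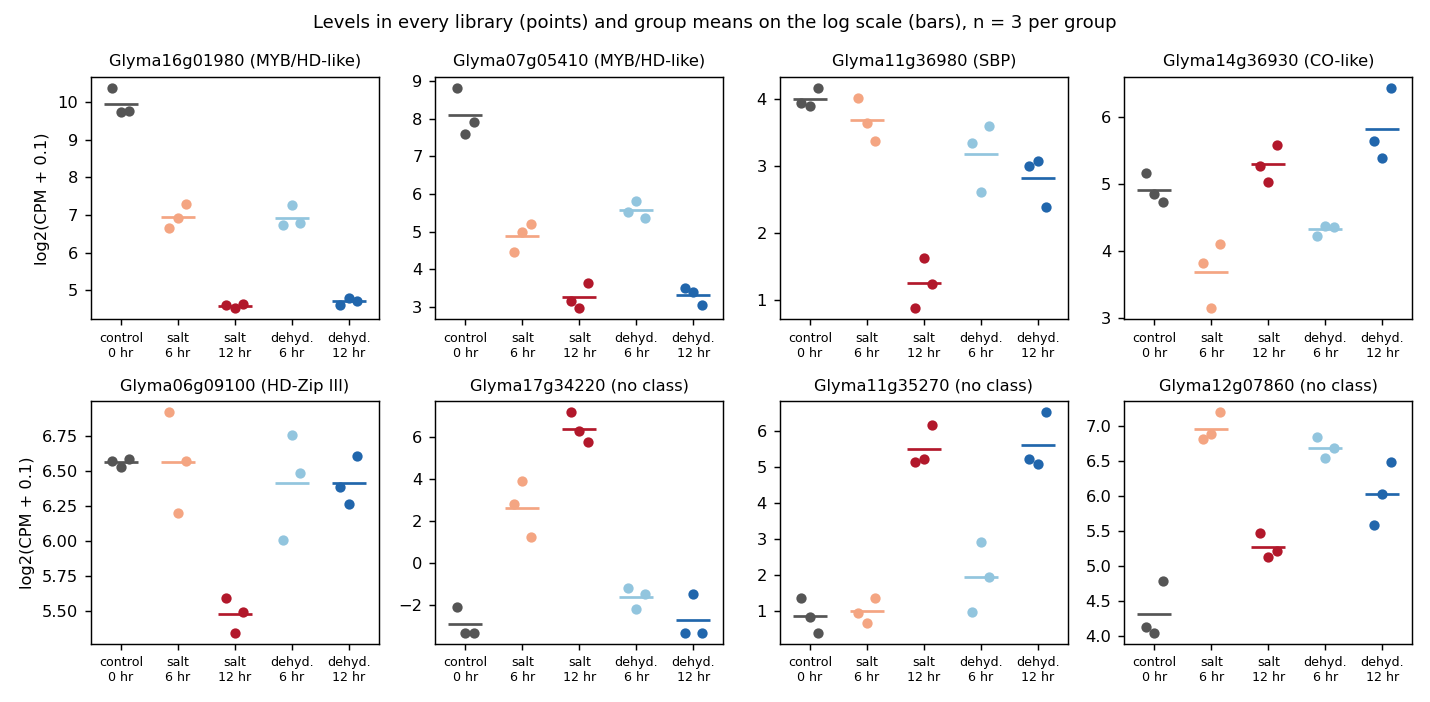
Points are single libraries and bars the means of 3, on log2(CPM + 0.1), for 8 genes in the control and in salt and dehydration at 6 and 12 hr, with an axis range of its own for each gene. The 3 libraries of salt 12 hr lie apart from the 3 of salt 6 hr in every panel, and Glyma16g01980, Glyma07g05410, Glyma14g36930 and Glyma11g35270 shift the same way under dehydration. Glyma12g07860 also shifts the same way there, by less and without a call.

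The classes with many salt-raised members were at like medians at both times. Of 89 tested WRKY genes 62 were raised by salt and 0 lowered, their median log2 change was 2.13 at 6 hr and 2.17 at 12 hr, and 0 were called and 0 reached an unadjusted p under 0.05 between the 2 times (edgeR), beside 0.144% called and 13.6% at that p over all tested genes. Of 20 ZIM genes 18 were raised, with medians of 2.39 and 2.24, and again 0 reached an unadjusted p under 0.05. AP2-EREBP (128 tested, 55 raised), NAC (57 tested, 29 raised) and C2H2 zinc finger genes (57 tested, 26 raised) had medians of 1.27, 1.18 and 0.984 at 6 hr and 1.39, 1.26 and 1.17 at 12 hr. None of these 5 classes had a called member, which at 0.144% of all tested genes says nothing particular about them.

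Behind these medians the libraries varied widely. The median log2 change of the WRKY genes over the control was 2.45, 2.17 and 1.57 in replicates 1 to 3 of 6 hr and 2.48, 2.11 and 1.62 at 12 hr, and that of the ZIM genes was 2.7, 2.91 and 1.16 at 6 hr, against 2.45, 2.48 and 2.07 at 12 hr. The ranges of the 2 times overlapped in both classes, with replicate 3 lowest at each time. The 95% interval lay within 2-fold for 6 of the 89 WRKY genes and 4 of the 20 ZIM genes, so that for most of them a change of 2-fold between the times lay inside the interval in at least 1 direction. Without replicate 3 of 6 hr 7 WRKY genes reached an unadjusted p under 0.05, all lower at 12 hr, and without replicate 1 of 6 hr 3 did, all higher. Without replicate 3 of 6 hr 19 of the 20 ZIM genes had a lower estimate at 12 hr, with a median of −0.51. Without replicate 2 of 6 hr the ZIM genes went the other way, 14 of the 20 having a higher estimate, with a median of 0.221.

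Single members show the same pattern. Glyma03g41750 (WRKY) was at 42.7, 32.7 and 26.7 CPM at 6 hr and 63.9, 37.2 and 28.6 CPM at 12 hr, beside 7.42, 8.99 and 10.6 CPM in the control. Glyma09g09100 (ZIM) was at 291, 229 and 150 CPM at 6 hr and 263, 274 and 239 CPM at 12 hr, beside 86.5, 89.1 and 80.1 CPM in the control. In both genes the 2 times overlapped and every salt library was above every control library. The log2 differences were 0.34 (SE 0.279, adjusted p = 0.625, edgeR) and 0.21 (SE 0.262, adjusted p = 0.77, edgeR). Glyma08g21080 (C2H2) was at 33.9, 24 and 28 CPM at 6 hr and 27.7, 27.8 and 30 CPM at 12 hr, with a log2 difference of −0.01 (SE 0.255).

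**Figure D3:**
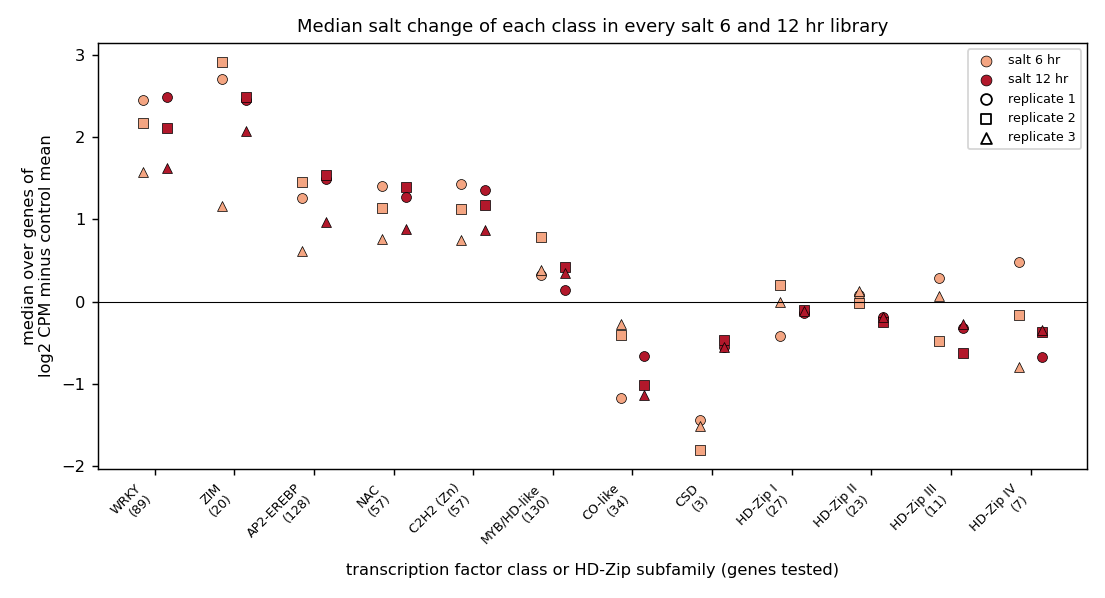
Each symbol is 1 salt library and shows the median, over the tested genes of a class, of log2 CPM minus the mean log2 CPM of the control, with the replicate number as the shape and the number of genes in brackets. The medians of the WRKY genes lie between 1.57 and 2.48 in the 6 libraries, replicate 3 being lowest at both times. For the 3 CSD genes the libraries of 6 and 12 hr lie apart, at −1.8 to −1.44 and −0.553 to −0.471. Those of the 23 HD-Zip II genes do not overlap either, at −0.0139 to 0.125 and −0.251 to −0.19.

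The small CSD class (cold shock domain proteins, which bind RNA and in Arabidopsis take part in cold acclimation) was picked out after its values were seen. All 3 of its members in the study's list had higher levels at 12 hr. Glyma12g03470 was at 59.1, 45.9 and 41.8 CPM at 6 hr and 109, 113 and 110 CPM at 12 hr, beside 106, 182 and 215 CPM in the control. Glyma11g11290 was at 80.5, 82.8 and 72.1 CPM at 6 hr and 129, 159 and 144 CPM at 12 hr, beside 119, 196 and 242 CPM in the control. Glyma06g11560 was at 2.88, 2 and 2.8 CPM at 6 hr and 4.98, 5.99 and 5.36 CPM at 12 hr, beside 9.49, 8.31 and 7.5 CPM in the control. For each gene the 2 times did not overlap, as in 17.7% of all tested genes, and the log2 differences were 1.18 (SE 0.37), 0.88 (SE 0.29) and 1.07 (SE 0.4). None passed the adjusted test (adjusted p = 0.166, 0.2 and 0.248, edgeR). Under dehydration Glyma12g03470 was at 181, 135 and 290 CPM at 6 hr, levels that overlapped the control.

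The HD-Zip family had 1 call between the times. Of the 101 HD-Zip genes in the study's list 7 were not analysed here, and 68 of the other 94 passed the filter on low counts. One was called between 6 and 12 hr (0.144% of all tested genes were), and 13 (19.1%, beside 13.6% of all tested genes) had an unadjusted p under 0.05. Of these 11 were lower and 2 higher, where 7.58% and 6.03% of all tested genes were, and the median log2 difference was −0.227, beside −0.0131 over all tested genes. By subfamily the median was 0.0529 for the 27 HD-Zip I genes tested, −0.426 for the 23 HD-Zip II, −0.298 for the 11 HD-Zip III and −0.294 for the 7 HD-Zip IV. Without replicate 1 of 6 hr the medians of all 68, of HD-Zip II and of HD-Zip III were −0.122, −0.22 and −0.109, and 6 members were lower at an unadjusted p under 0.05. Without any other single salt library 9 to 11 were.

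The called gene was Glyma06g09100 of HD-Zip III. It was at 94.9, 92.2 and 96.2 CPM in the control, at 121, 73.4 and 94.9 CPM at 6 hr and at 48.1, 40.5 and 44.8 CPM at 12 hr. The 6 hr libraries lay around the control, and those of 12 hr were below all of them. The log2 difference was −1.12 (SE 0.209, adjusted p = 0.0384, edgeR), a 2.16-fold fall. Under dehydration the gene was at 64.2, 108 and 89.5 CPM at 6 hr and at 83.4, 76.7 and 97.3 CPM at 12 hr, with overlapping libraries. The call was lost with the replicate block (adjusted p = 0.0813) and without any 1 salt library other than replicate 2 of 6 hr (0.0242 to 0.153 over the 6 fits).

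All 11 HD-Zip III genes had a lower estimate at 12 hr, and 9 of the 11 had a 95% interval within 2-fold. Glyma15g13640 was at 63, 27.4 and 38.6 CPM at 6 hr and 31.4, 18.9 and 19.9 CPM at 12 hr, and Glyma12g08080 was at 45.6, 62.1 and 67.3 CPM at 6 hr and 39, 38.3 and 43.3 CPM at 12 hr. The times overlapped in the first and not in the second, and the log2 differences of −0.89 (SE 0.27) and −0.54 (SE 0.21) had unadjusted p-values of 0.0046 and 0.017 and adjusted ones of 0.161 and 0.258 (edgeR). The smallest difference was that of Glyma07g01950, −0.01 (SE 0.22). Without replicate 2 of 12 hr 8 of the 11 were lower, without replicate 3 of 6 hr 9, and without replicate 1 of 6 hr 10.

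HD-Zip II held 6 of the 11 members that were lower at an unadjusted p under 0.05, and 3 without replicate 1 of 6 hr. Glyma03g30200 was at 8.42, 5.49 and 6.09 CPM at 6 hr and 2.17, 2.57 and 2.02 CPM at 12 hr, beside 4.67, 8.42 and 4.36 CPM in the control. Its libraries of 12 hr were below those of both other groups, with a log2 difference of −1.55 (SE 0.35, unadjusted p = 0.00037, adjusted p = 0.0815, edgeR). Its homoeologous partner Glyma19g33100, the other copy left by genome duplication, was at 23.2, 6.74 and 4.59 CPM at 6 hr and 3.9, 4.38 and 5.12 CPM at 12 hr, with a log2 difference of −1.33 (SE 0.46, adjusted p = 0.219, edgeR). Replicate 1 of 6 hr stood clearly above its other 5 salt libraries. Reads that fit both copies of a pair equally were not counted, so the levels of such pairs are uncertain.

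A second HD-Zip II pair had a lower estimate in both copies too. Partners were looked up after values were seen, and only for named genes that were lower, so the pairs do not stand for the subfamily. Of the 23 HD-Zip II genes tested, 14 had a lower estimate at 12 hr and 9 a higher one. Glyma02g28860 was at 22.4, 15 and 7.24 CPM at 6 hr and 4.33, 6.52 and 4.64 CPM at 12 hr, beside 7.15, 5.46 and 6.71 CPM in the control, with a log2 difference of −1.49 (SE 0.38, adjusted p = 0.109, edgeR). It was raised at 6 hr (log2 change 1.18, adjusted p = 0.0455) and stood at −0.30 from the control at 12 hr. Its partner Glyma09g16790 was at 24.9, 15.2 and 11.9 CPM at 6 hr and 11, 6.95 and 11.1 CPM at 12 hr, with a log2 difference of −0.83 (SE 0.42, adjusted p = 0.393, edgeR). In each gene the lowest library of 6 hr was replicate 3.

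**Figure D4:**
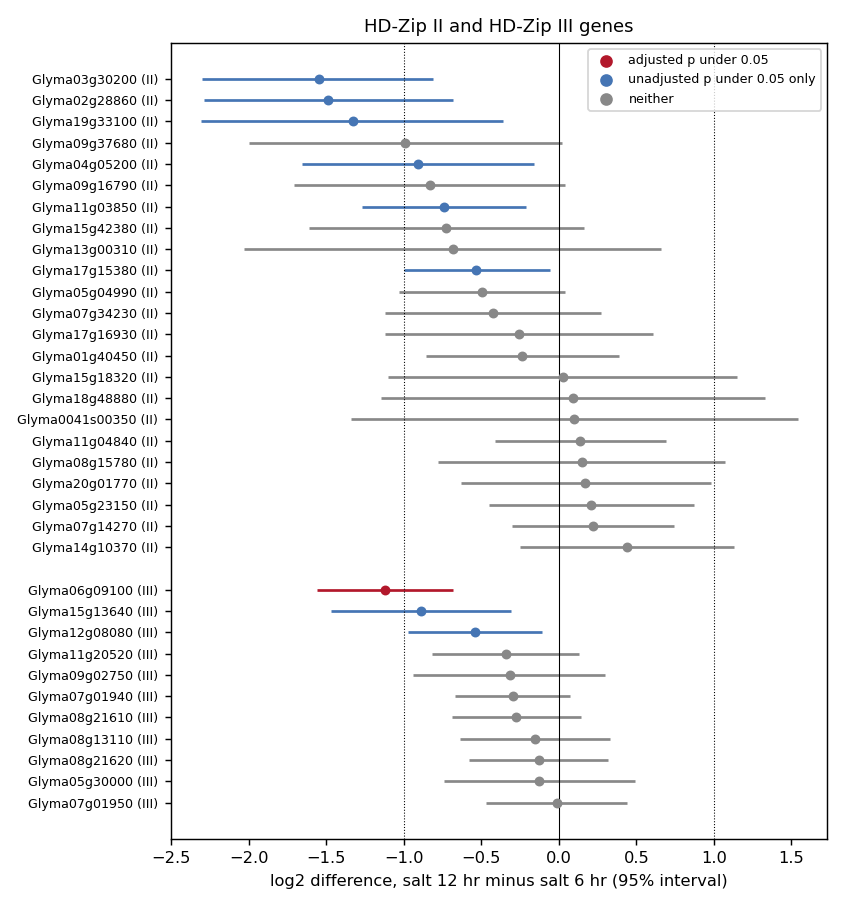
Points are the log2 differences between salt 12 and 6 hr of the 23 HD-Zip II and 11 HD-Zip III genes tested, bars their 95% intervals and dotted lines 2-fold. All 11 HD-Zip III points lie below 0 with Glyma06g09100 at −1.12, and the HD-Zip II points run from −1.55 to 0.44.

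HD-Zip genes that salt raised over the control had no call between the times. With 0.447% of all salt-changed genes called, this says nothing particular about them. Glyma15g18320 (HD-Zip II) was at 0, 0.114 and 0.336 CPM in the control, at 14.6, 9.48 and 2.8 CPM at 6 hr and at 14.3, 7.59 and 5.24 CPM at 12 hr. Every salt library was above the control and the 2 times overlapped, with log2 changes of 5.66 and 5.69 from the control and a difference of 0.03 (SE 0.535). Glyma07g05800 (HD-Zip I) was at 5.75, 59.6 and 18.9 CPM at 6 hr and 62.8, 55.5 and 72.1 CPM at 12 hr, beside 22.3, 9.68 and 5.15 CPM in the control. It was called against the control at 12 hr (log2 change 2.37, adjusted p = 0.0329) and not at 6 hr (1.17, adjusted p = 0.3), but with overlapping libraries the difference of 1.20 (SE 0.699) between the times had an adjusted p of 0.469 (edgeR). Of the 68 tested HD-Zip genes, 12 were called against the control at 6 or 12 hr, where 15.3% of all tested genes were, and 4 in the mean of both, where 12.8% were.

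The genes outside the study's classes, 44 of the 53 called, carry only an identifier in the sources used here, and few are named. The rise with the smallest p was that of Glyma11g35270, at 1.85, 1.5 and 2.51 CPM at 6 hr, beside 2.47, 1.71 and 1.23 CPM in the control, and at 35.3, 37.1 and 71.9 CPM at 12 hr. The 6 hr libraries overlapped the control and those of 12 hr were far above both, with a log2 difference of 4.54 (SE 0.543, adjusted p = 0.0011, edgeR). The fall with the smallest p was that of Glyma11g21580, from 49.1, 51.6 and 50.8 CPM at 6 hr to 4.98, 5.24 and 3.57 CPM at 12 hr, beside 126, 87.3 and 75.1 CPM in the control. The control, 6 hr and 12 hr libraries formed 3 separate ranges, and the log2 difference was −3.46 (SE 0.273, adjusted p = 8.35e-06, edgeR). Both genes were called in each fit without 1 salt library, with the replicate block and with lane as a term.

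The 5 raised genes that went on were Glyma08g09720, Glyma16g32080, Glyma17g34220, Glyma11g35270 and Glyma04g37530. Glyma17g34220 was almost absent from the control, with 1 count in its 3 libraries together, and was at 6.78, 15 and 2.22 CPM at 6 hr and at 143, 78 and 53.2 CPM at 12 hr. The 2 times did not overlap, and the log2 difference was 3.60 (SE 0.567, adjusted p = 0.015, edgeR). Against the single control count the ratio was 136 at 6 hr (23.9 to 5410) and 2050 at 12 hr (368 to 81100), with exact 95% intervals that cover counting error only. The adjusted p of Glyma17g34220 ranged from 0.0119 to 0.0819 over the fits without 1 salt library, the call being lost without replicate 1 of either time.

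Glyma16g32080 was at 0.137, 0.342 and 0.448 CPM in the control, at 5.34, 7.24 and 2.37 CPM at 6 hr and at 36.2, 26.4 and 62.6 CPM at 12 hr. The 3 groups formed 3 separate ranges, with a log2 difference of 3.13 (SE 0.557, adjusted p = 0.0332, edgeR) between the times. Glyma08g09720 rose from 9.45, 14.5 and 12.2 CPM to 27.7, 23.7 and 33.7 CPM, beside 9.07, 9.45 and 8.5 CPM in the control. Its 12 hr libraries were above all others (log2 difference 1.24, SE 0.232, adjusted p = 0.0384, edgeR). Glyma04g37530 had 0 counts in the control, 1 count over the libraries of 6 hr and 61 over those of 12 hr, a ratio of 62.2 (10.8 to 2500, counting error only). With the replicate block the adjusted p-values of Glyma16g32080, Glyma08g09720 and Glyma04g37530 were 0.077, 0.0845 and 0.0813. Glyma16g32080 kept its call without replicate 2 of either time alone (0.0414 to 0.151 over the 6 fits), and Glyma08g09720 (0.0416 to 0.173) and Glyma04g37530 (0.0316 to 0.117) only without replicate 2 of 6 hr.

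The 3 genes that returned were Glyma12g07860 and Glyma04g40640, raised at 6 hr, and Glyma15g12310, lowered at 6 hr. Glyma12g07860 was at 112, 118 and 146 CPM at 6 hr and 44, 34.8 and 36.8 CPM at 12 hr, beside 17.3, 16.4 and 27.4 CPM in the control. At 12 hr it was still above every control library, and the log2 difference was −1.71 (SE 0.256, adjusted p = 0.0104, edgeR). Glyma04g40640 was at 357, 332 and 265 CPM at 6 hr and 89, 142 and 108 CPM at 12 hr, beside 15.7, 23.6 and 22.8 CPM in the control. Its 3 groups were separate, and the log2 difference was −1.49 (SE 0.283, adjusted p = 0.0406, edgeR), so that at 12 hr it stayed 2.45 above the control on the log2 scale. Glyma15g12310 had 1 count over the 3 libraries of 6 hr and 19 over those of 12 hr, a ratio of 19.4 (3.08 to 806, counting error only), and was at 0.412, 0.797 and 1.34 CPM in the control. Under dehydration Glyma12g07860 was at 114, 93.1 and 103 CPM at 6 hr and at 47.7, 64.8 and 89.8 CPM at 12 hr. These libraries did not overlap, but the log2 difference of −0.62 was not called (adjusted p = 0.986, edgeR). The dehydration libraries of Glyma04g40640 and Glyma15g12310 overlapped between the times.

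Leaving out single libraries ended the calls of these returns. Glyma12g07860 lost its call without replicate 2 and without replicate 3 of 12 hr (0.0188 to 0.0788 over the 6 fits), and Glyma04g40640 (0.0742 to 0.173) and Glyma15g12310 (0.0636 to 0.158) without any 1 of the 6 salt libraries. With the replicate block the adjusted p was 0.0951 for Glyma04g40640 and 0.077 for Glyma15g12310. The direction was the same in each of these fits, as is likely for libraries that do not overlap between the times.

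Dehydration at 12 against 6 hr, which shares no library with the salt comparison, was used to ask whether the same genes moved at the same hours under the other stress. It had 16 called genes (0.0436%), 5 higher and 11 lower, and 1813 genes (4.94%) with an unadjusted p under 0.05. Of these 16, 9 were among the 53 called under salt, all in the same direction (3 higher, 6 lower), which is 17% of the salt list and 56.2% of the dehydration list. The 9 included 8 of the 18 salt-changed genes that went on (2 raised, 6 lowered) and 3 genes with a transcription factor class, Glyma16g01980, Glyma07g05410 and Glyma14g36930.

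These genes moved the same way under both stresses. Glyma16g01980 was at 107, 153 and 110 CPM after 6 hr of dehydration and 24.1, 27.6 and 26.3 CPM after 12 hr, a log2 difference of −2.25 (adjusted p = 8.49e-05, edgeR). Glyma07g05410 went from 45.9, 55.9 and 41.3 CPM to 11.2, 10.4 and 8.26 CPM. Glyma14g36930 went from 18.6, 20.6 and 20.5 CPM to 49.8, 41.9 and 86.2 CPM, a log2 difference of 1.57 (adjusted p = 0.0215, edgeR). Glyma11g21580 went from 41.1, 40.1 and 30.2 CPM to 3.13, 1.82 and 1.81 CPM, and Glyma11g35270 from 1.87, 7.46 and 3.78 CPM to 37.1, 33.5 and 90.9 CPM. In none of these 5 did the dehydration libraries of the 2 times overlap. All 5 were taken from the genes called under dehydration, so this adds nothing to the calls. Time of day and seedling age are shared by both stresses at these hours, and their part in the shared changes was not tested.

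Among the other classed genes, 3 had dehydration libraries that did not overlap between the times and were lower at 12 hr, without a call. Glyma19g45030 was at 7.5, 9.14 and 6.12 CPM after 6 hr of dehydration and 1.79, 1.04 and 0.258 CPM after 12 hr (log2 difference −2.73, adjusted p = 0.107, edgeR). Glyma12g11230 was at 5.95, 5.77 and 5.34 CPM and then at 2.38, 2.86 and 0.774 CPM (log2 difference −1.48, adjusted p = 0.353, edgeR). The smallest of the 3 differences was that of Glyma18g03430, at 14, 17.6 and 14.2 CPM and then at 10.6, 11.2 and 9.55 CPM (log2 difference −0.55, adjusted p = 0.986, edgeR).

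Glyma11g36980 and Glyma17g34220 were called under salt and had overlapping libraries under dehydration. Glyma11g36980 (SBP) was at 10.1, 6.01 and 12 CPM after 6 hr of dehydration and 7.9, 8.32 and 5.16 CPM after 12 hr. Glyma17g34220 was at 0.331, 0.12 and 0.261 CPM and then at 0, 0.26 and 0 CPM, against its rise under salt. For 41 of the 53 genes the dehydration estimate was within 2-fold, and for 42 it had the sign of the salt difference. The shares of all tested genes with such estimates were not counted, so neither number is a result about the 53. Of all tested genes, 4.94% had an unadjusted p under 0.05 under dehydration (edgeR).

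The difference between the stresses was then tested itself, as salt 12 minus 6 hr less dehydration 12 minus 6 hr. No gene was called (0%, edgeR, smallest adjusted p = 0.392), 2566 (6.99%) had an unadjusted p under 0.05, and DESeq2's Wald test called 17. The log2 difference between the stresses was −2.04 for Glyma11g36980 (unadjusted p = 0.000414), 5.17 for Glyma17g34220 (unadjusted p = 0.0123) and −1.09 for Glyma06g09100 (unadjusted p = 0.00152), each with an adjusted p above 0.05. Of the 53 genes, 40 had an unadjusted p under 0.05 in this test, but they were chosen by the salt difference that forms one side of it. The count of 0 was the same with each salt or dehydration library of 6 or 12 hr left out in turn.

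**Figure D5:**
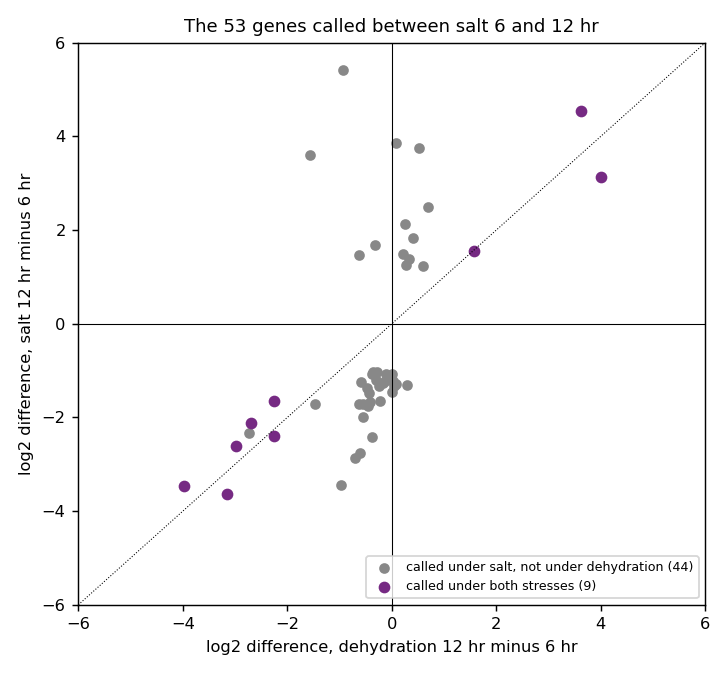
Each point is 1 of the 53 genes called between salt 6 and 12 hr, placed by its log2 difference between 12 and 6 hr under dehydration (x) and under salt (y), with the dotted line at equal values. The 9 genes called under both stresses lie near the dotted line, and 41 of the 53 have a dehydration difference between −1 and 1. The share of all tested genes between these values was not counted.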

How the data were processed

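Root RNA from 21 samples was sequenced in single-end 50 bp reads over 3 HiSeq lanes. The authors aligned reads with GSNAP (at most 4 mismatches) to the Glyma1.0 gene models and deposited raw counts of uniquely mapped reads for 62537 models. The counting program and its use of strand are not given in the sources used here, so overlapping, antisense and near-identical genes are uncertain. The second deposited table holds the normalized signal, each count divided by a DESeq 1.7.10 size factor, and served in limma alone.

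Counts were filtered (filterByExpr by group), TMM-normalized and fitted with edgeR 4.0.16 (estimateDisp and glmQLFit, robust, 7 groups, no covariate) in R 4.3.3, and glmQLFTest gave each contrast, with SE as log2 difference over the root of F. The biological coefficient of variation was 0.306. Counts summed over gene models ran, in the compared groups, from 4202958 to 13759153. The scripts were tested on simulated data. Ratios with 1 count have an exact interval conditional on the sum.

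Alternatives were DESeq2's size factors and DESeq2 1.42.0, no filter, a mean CPM of at least 1, lane as a term, the replicate block, only the groups compared, limma 3.58.1 on log2 of the normalized signal plus 1 or 0.1, thinning of the salt libraries to the shallowest, lane 2 alone, no fold limit, salt-changed genes chosen at 1 time, the study's variance criterion (residual variance quotient under 20, rebuilt with locfit 1.5.9.12), and each library left out. A block within the 6 libraries was chosen after seeing the data.

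Same-numbered libraries of 6 and 12 hr deviated together from their group means (correlations of 0.157, 0.42 and 0.356). The pairing comes from the data, since the labels do not say what a number shares.

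Genes named are called genes of a study transcription factor class, HD-Zip genes and up to 4 genes of each fate by p. Raised members of the most salt-raised classes with an interval within 2-fold, and CSD genes, were picked after their values were seen. The files do not pair identifiers with descriptions and none of the reference table's identifiers matched, so lists by description and a check of root markers could not be made, further called identifiers are left unnamed, and no sequence is shown. Members and lists were chosen with earlier results of these data known.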

Additional observations from a re-analysis of the deposited data

How the results depend on the processing

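All 53 called genes kept their direction in each alternative fit of the salt comparison that tested them. Their libraries did not overlap between the times, so this was likely beforehand. DESeq2's size factors, no filter, a mean CPM of at least 1, limma with a pseudocount of 1 or 0.1, no fold limit and the variance criterion left the number called within 1.5 times of 53 (42 to 73). The number called, that went on and that returned were 423, 82 and 19 by DESeq2's Wald test, 19, 8 and 1 with the replicate block, 34, 11 and 1 with thinned libraries, and 4, 2 and 0 with only the lane 2 library of 12 hr. With only the groups compared in the fit, 2 were called with the 6 salt libraries, and a separate fit that also held the control gave 6 that went on and 0 that returned. With lane as a term, which is partly confounded with the groups, 7 were called (4 higher, 3 lower) and 4 went on. The block in the 6 compared libraries left 3 called (2 higher, 1 lower). Genes chosen at 6 hr, 12 hr or either gave 6, 32 and 32 that went on and 8, 1 and 8 that returned, and no fold limit gave 5 that returned. Without 1 library, the number called was 7 to 61, that went on 6 to 23 and that returned 0 to 4. The difference between salt and dehydration had 17 called genes by DESeq2's Wald test and 0 in every other fit. With the block 4300 genes were salt-changed and 13 were called under dehydration, and between salt 6 and 12 hr it changed the call of no named gene other than those whose value with the block is given. The causes were not tested. With 3 libraries per group and a 6 hr group in which 1 library stands apart, the interval of most salt-changed genes held a 2-fold change.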

Other observations

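A few classes of the study's lists with no called member are given here as values, picked out after they were seen. They hold only genes that the study listed as changed on these libraries, so the counts are a description. Of 22 tested Dof zinc finger genes 17 had a lower estimate at 12 hr of salt, as had 18818 of the 36691 tested genes, and the median log2 difference was −0.394. At an unadjusted p under 0.05 (edgeR's quasi-likelihood test) 5 (22.7%) differed, all lower, beside 13.6% of all tested genes and 7.58% that were lower. Without replicate 1 of 6 hr the median was −0.12, without replicate 3 of 12 hr −0.235, and the number lower at that p was 3 without replicate 2 of either time. Of 19 tested AS2 genes (plant proteins with a lateral organ boundaries domain) 17 had a lower estimate, with a median of −0.68, and 2 (10.5%, fewer than the 13.6% of all tested genes) had an unadjusted p under 0.05. Without replicate 1 of 6 hr that median was −0.28, with 4 genes at that p, and 4 without replicate 3 of 6 hr and 7 without replicate 2 of 12 hr reached it.

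All 5 tested HMG genes (high mobility group proteins that bind DNA) were lowered by salt on average. Their median log2 changes from the control were −1.88 at 6 hr and −1.69 at 12 hr. Between the times 0 had an unadjusted p under 0.05 (edgeR), which at 13.6% of all tested genes says nothing particular about 5 genes. The interval of the log2 difference lay within 2-fold for 1 of the 5, so the others cannot be taken as level.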
